A study of Mus musculus with 11 samples.

Results

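The genes described here serve cholesterol synthesis, fatty acid synthesis and cholesterol export in mouse macrophages. They were taken from a list of 37 gene symbols that act in sterol synthesis, in its control by the SREBP transcription factors, in fatty acid synthesis and desaturation, in the LXR and efflux pathway, or in handling of cholesterol inside the cell. The rule names them by symbol and uses no measured value, although the list was drawn up with earlier results of these data known. Of the 37 genes, 35 were measured here, among 18193 genes in all, and Acat2 and Soat1 were not analysed here. Each gene was represented by its probe set (a group of short oligonucleotides on the array that reads 1 transcript) with the highest mean over the 11 arrays, out of 74 probe sets for the 35 genes. All cells came from bone marrow of Rag1-/- C57BL/6 mice aged 7 weeks, which lack mature B and T cells, were cultured for 7 days and were sorted for F4/80, a surface protein of mouse macrophages. M1 cells received IFN-g and, in the last 24 hours, LPS, a bacterial cell wall component (3 arrays). M2a cells were given IL-4 with IL-13 (3 arrays), and M0 cells got no cytokines (5 arrays). Values are deposited log2 values from Affymetrix mouse arrays, so a difference of 1 is a 2-fold change, and levels are compared between groups and never between genes.

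Cells make cholesterol from acetyl-CoA through the mevalonate pathway, in which squalene and then lanosterol are formed and lanosterol is trimmed to cholesterol. When membrane sterol is low, the SREBP transcription factors are cut free in the Golgi and switch on the genes of this pathway, of fatty acid synthesis and of lipoprotein uptake. When sterol is plentiful, Insig proteins hold SREBP back in the endoplasmic reticulum. Oxysterols then activate the LXR nuclear receptors, which switch on the transporters that load cholesterol onto lipoproteins. Macrophages take up the lipid of dead cells and lipoproteins, and in them the LXR arm is known for cholesterol export.

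Promoter sequence was read for 27 of the 35 genes, from RefSeq windows of 250 bases before to 50 bases after the transcription start on the build GRCm38.p6. The CCAAT box, which binds the NF-Y factor that acts beside SREBP in sterol gene promoters, was searched as CCAAT on both strands. It was found in 14 of the 14 sterol synthesis genes with a window and in 22 of the 27 genes in all (81.5%), against 41.1% of 27025 genes. The sterol regulatory element core was searched as TCACNCCAC on both strands and was found in Hmgcs1 alone of the 27 genes, against 1.44% of all genes. The E-box CACGTG was found in 5 of the 27 genes, against 8.09% of all genes. The LXR element, searched on both strands as 2 copies of a half-site spaced by 4 bases (GGTCANNNNAGGTCA, the first copy short of its first base), was found in 0 of the 27 genes and in 6 of the 27025 genes. A match of letters is not a bound site, and none of the motifs searched contains another. The 180 bases before the start are shown for 4 genes, chosen after their values were seen. Hmgcs1 holds the sterol element and was lower in M1, Idi1 and Cyp51 were lower in M1 and M2a, and Mvk holds 5 boxes and its M1 and M2a values overlapped those of M0. Capitals mark CCAAT boxes, which read ATTGG where they lie on the other strand, and the sterol element core.
Hmgcs1, chr13:119690171-119690350, plus strand: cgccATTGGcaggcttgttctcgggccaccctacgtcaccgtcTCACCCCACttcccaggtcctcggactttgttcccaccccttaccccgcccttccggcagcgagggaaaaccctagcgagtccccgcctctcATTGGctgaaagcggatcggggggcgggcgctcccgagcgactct
Idi1, chr13:8885426-8885605, plus strand: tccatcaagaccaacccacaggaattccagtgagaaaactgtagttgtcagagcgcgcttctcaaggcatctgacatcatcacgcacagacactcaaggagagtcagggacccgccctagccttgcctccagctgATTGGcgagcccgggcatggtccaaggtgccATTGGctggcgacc
Cyp51, chr5:4104698-4104877, minus strand: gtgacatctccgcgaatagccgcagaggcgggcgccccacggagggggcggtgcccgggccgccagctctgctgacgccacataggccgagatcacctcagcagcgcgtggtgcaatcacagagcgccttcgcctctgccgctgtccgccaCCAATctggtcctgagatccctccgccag
Mvk, chr5:114444089-114444268, plus strand: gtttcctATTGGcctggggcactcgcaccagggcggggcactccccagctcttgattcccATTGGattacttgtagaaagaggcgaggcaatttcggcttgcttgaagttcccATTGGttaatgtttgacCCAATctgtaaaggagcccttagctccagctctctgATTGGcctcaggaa
Positions are counted back from the start. In Hmgcs1 the sterol element begins at -137, between boxes at -176 and -45. Idi1 has boxes at -45 and -14, and Cyp51 has 1 box at -29. Mvk has the same kind of box at -173, -120, -67, -50 and -14.

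The M0 arrays differed more among themselves than the others did. The median standard deviation (SD) of a gene over arrays was 0.082 in M1, 0.0857 in M2a and 0.244 in M0. M0 arrays 1 to 3 averaged to the same value as M0 arrays 4 and 5, within 8.33e-05, on all 45101 probe sets, which makes these arrays dependent on each other. Separate mice are not stated for the replicates in the labels. A p-value here covers no more than the spread of these samples, and that spread may be technical. Markers of the macrophage itself also moved: the mean of 8 such genes ran from 11.86 to 11.87 in M1, from 9.99 to 10.33 in M2a and from 10.63 to 11.37 in M0. Of the 8, 4 rose and 1 fell in M1 (62.5% called, where 39.7% of all genes were). In M2a 1 rose and 5 fell (75% called, where 31.9% of all genes were). The F4/80 sort left other signals that moved with the groups. The mean of 11 neutrophil-lineage genes ran from 7.26 to 7.43 in M1, from 5.38 to 5.47 in M2a and from 11.42 to 12.88 in M0, and 10 of the 11 fell in M1 and 11 of 11 in M2a. All 9 measured markers of eosinophils, basophils and mast cells fell in M1 and in M2a, as did all 9 measured cell cycle genes. Stromal and endothelial genes (7 measured) averaged 5.44 to 5.5 in M1, 4.15 to 4.42 in M2a and 5.98 to 6.92 in M0. Of the 7, 2 fell in M1 (28.6% called) and 6 in M2a (85.7% called), and 0 rose in either. Hybridization control spots, added in the laboratory, averaged 9.64 to 9.75 in M1, 9.79 to 9.96 in M2a and 10.61 to 11.70 in M0. The difference between 5′ and 3′ actin probe sets, a measure of RNA integrity, was 0.13 to 0.18 in M1, -0.63 to -0.53 in M2a and -1.27 to 0.05 in M0. M0 arrays 1 and 4 stood highest in the neutrophil genes (12.88 and 12.10) and the hybridization controls (11.70 and 11.69). Erythroid and megakaryocyte genes (5 measured) averaged 5.39 to 5.51 in M1, 5.81 to 6.11 in M2a and 7.69 to 8.07 in M0. Of the 5, 2 rose and 3 fell in M1 (100% called, where 39.7% of all genes were). In M2a 0 rose and 3 fell (60% called, where 31.9% of all genes were). The poly-A control spots averaged 5.27 to 5.37 in M1, 5.93 to 6.11 in M2a and 8.47 to 9.48 in M0, and the 18S ribosomal probe sets 6.15 to 6.30, 8.51 to 8.64 and 8.96 to 9.54 in the same groups. The part of these signals in the results below was not tested. Fits that take a control value as a covariate can hardly part that value from the groups where its ranges do not overlap. In RNA of a whole sorted sample fewer cells of a type and less RNA per cell cannot be told apart.

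In M1 cells the sterol synthesis genes that changed were all lower, while the LXR receptor gene Nr1h3 and the exporter Abca1 were higher. In M2a cells fewer sterol genes were lower, Dhcr7 and the desaturase Scd2 were higher, and Apoe was 26.7-fold lower. In the limma fit 15 of the 35 genes (42.9%) passed an adjusted p of 0.05 in M1 against M0, 4 higher and 11 lower, where 39.7% of all 18193 genes passed (22.1% higher and 17.6% lower). In M2a against M0 13 of 35 passed (37.1%), 5 higher and 8 lower, where 31.9% of all genes passed (18.6% higher and 13.3% lower). In M1 against M2a 17 of 35 passed (48.6%), 5 higher and 12 lower, where 29.4% of all genes passed (13.7% higher and 15.6% lower). The share of these genes called in M1 and in M2a against M0 was thus near that of all genes. Their median difference was -0.09 in M1 and -0.07 in M2a against M0, and -0.12 in M1 against M2a, beside medians over all genes of 0.06, 0.07 and -0.02.

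**Figure D1:**
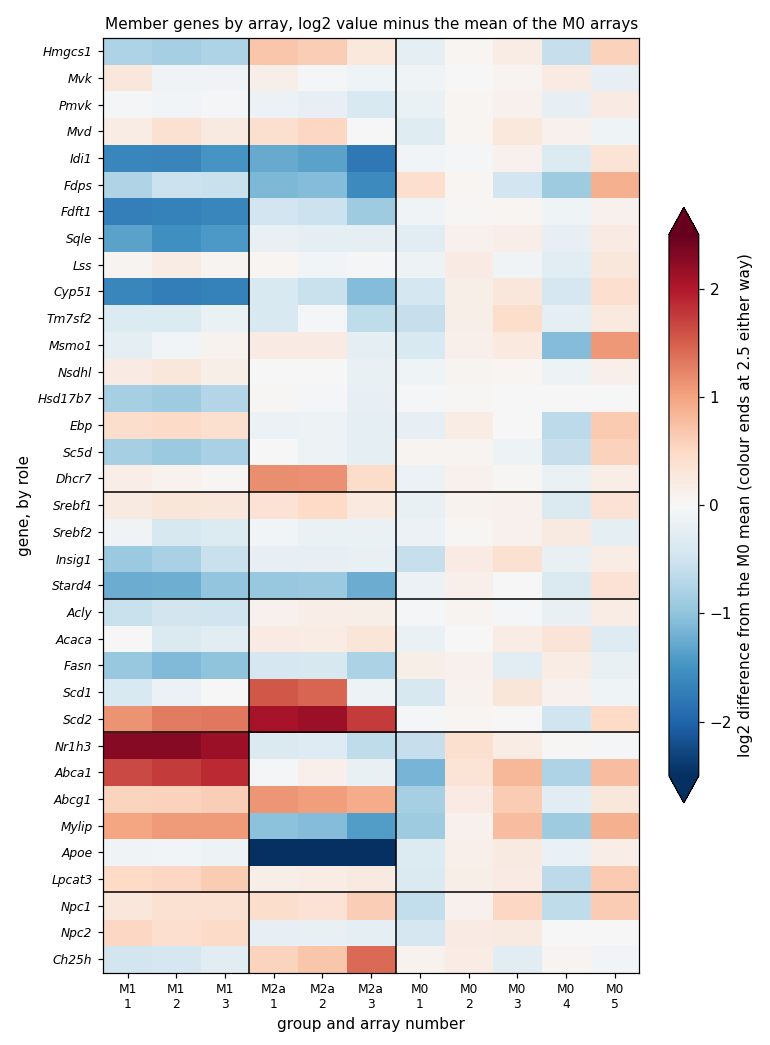
Heat map of the 35 genes (rows, by role) over the 11 arrays (columns, by group and array number), coloured by the log2 value minus the mean of the 5 M0 arrays. The blue block in M1 covers Idi1, Fdft1, Sqle and Cyp51 among the sterol genes, the deepest colour in M2a is Apoe, and M0 arrays 1 and 4 differ from the other M0 arrays in Abca1, Mylip and Npc1.

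The first enzymes of the mevalonate pathway split in M1. Hmgcs1, the synthase that makes HMG-CoA, had log2 values of 8.86, 8.80 and 8.85 in M1, 10.31, 10.24 and 9.88 in M2a, and 9.39, 9.67, 9.81, 9.04 and 10.21 in M0. All M1 arrays lay below all M0 arrays, and M2a lay at or above most of them. Hmgcs1 fell by 0.79 ± 0.21 (SE) in M1 (limma, adjusted p = 0.013), and its difference in M2a was 0.52 ± 0.21 with an adjusted p of 0.087. All 5 Hmgcs1 probe sets were lower in M1, by differences of -0.51 to -1.64, although the call was lost with M0 arrays 4 and 5 alone (adjusted p = 0.097) and when the _x_at and _s_at probe sets, designs that may bind several transcripts, were left out (-0.51, adjusted p = 0.12). A covariate moved the difference to -1.44 (actin value) or -1.82 (hybridization controls). Without M0 array 5 Hmgcs1 passed in M2a as well (0.67, adjusted p = 0.01), and the hybridization covariate turned that difference to -0.41 (adjusted p = 0.22). The kinases Mvk and Pmvk and the decarboxylase Mvd, which turn mevalonate into isopentenyl diphosphate, did not pass in either state. Their differences were 0.03, -0.05 and 0.27 in M1 and 0.00, -0.24 and 0.30 in M2a. Mvd passed in M2a without M2a array 3 (0.46, adjusted p = 0.046), and its second probe set was 0.50 higher in M1 (adjusted p = 0.011).

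Idi1, the isomerase that makes the 2 isoprenoid building blocks interchangeable, was lower in both cytokine states. Its values were 6.59, 6.58 and 6.74 in M1, 6.95, 6.89 and 6.42 in M2a, and 8.15, 8.17, 8.33, 7.88 and 8.56 in M0. No M1 or M2a array reached the lowest M0 array. It fell by 1.58 ± 0.16 (SE) in M1 (adjusted p = 1.1e-05) and by 1.46 ± 0.16 in M2a (adjusted p = 3.4e-05), and its second probe set gave -1.73 and -1.19. The difference in Idi1 between M1 and M2a, -0.12, did not pass (adjusted p = 0.66).

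Fdps, which makes farnesyl diphosphate, had 7.53, 7.75 and 7.73 in M1, 7.17, 7.21 and 6.70 in M2a, and 8.71, 8.34, 7.81, 7.40 and 9.17 in M0. The M0 arrays spanned a wide range, the M1 arrays lay within it and the M2a arrays lay below it. Fdps fell by 1.26 ± 0.33 in M2a (adjusted p = 0.012), and its M1 difference was -0.62 (adjusted p = 0.15). The M2a call was lost without M2a array 3 (-1.09, adjusted p = 0.063) and with M0 arrays 4 and 5 alone (adjusted p = 0.083), the mean of its probe sets gave -0.55, and the hybridization covariate gave -2.0. In M1 Fdps passed in 6 alternatives. Leaving out M0 array 4 gave -0.84 (adjusted p = 0.024), and the actin covariate gave -1.60 (adjusted p = 0.0014).

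The enzymes that make squalene and its epoxide, Fdft1 and Sqle, and the first one to act on lanosterol, Cyp51, each fell in M1. Fdft1, squalene synthase, had 6.06, 6.08 and 6.13 in M1, 7.29, 7.24 and 6.87 in M2a, and 7.68, 7.80, 7.81, 7.66 and 7.87 in M0, with no overlap among the 3 groups. It fell by 1.67 ± 0.11 in M1 (3.19-fold, adjusted p = 3e-07) and by 0.63 ± 0.11 in M2a (adjusted p = 0.00091). The Fdft1 probe sets disagreed. A second one of similar signal was -1.10 in M1 and 0.10 in M2a, and the other 2, of lower signal, were 0.37 and 0.36 in M1. The M2a direction therefore turned with the mean of its probe sets (0.05) and without the _x_at and _s_at sets (0.10), and the M1 difference with the mean of its probe sets was -0.51 (adjusted p = 0.00012).

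Sqle, squalene epoxidase, is an oxygen-using step that limits the flux to sterols. It had 6.40, 6.22 and 6.30 in M1, 7.56, 7.50 and 7.50 in M2a, and 7.47, 7.86, 7.92, 7.54 and 7.96 in M0. All M1 arrays were more than 1 log2 unit below the lowest M0 array, and the M2a arrays overlapped the lower M0 arrays. Sqle fell by 1.44 ± 0.12 in M1 (2.71-fold, adjusted p = 3.5e-06), while its M2a difference was -0.23 (adjusted p = 0.19) and -0.39 (adjusted p = 0.0023) without M0 arrays 1 and 4. Lss, which closes squalene epoxide to lanosterol, had differences of 0.11 in M1 and -0.01 in M2a, and neither passed, although 1 of its 3 probe sets was 0.64 higher in M2a (adjusted p = 0.023).

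Cyp51, the demethylase that takes lanosterol towards cholesterol, had 5.85, 5.74 and 5.79 in M1, 7.10, 6.93 and 6.39 in M2a, and 7.04, 7.63, 7.76, 7.06 and 7.89 in M0. The M1 arrays lay far below both other groups, and 1 M2a array overlapped M0. Cyp51 fell by 1.68 ± 0.22 in M1 (3.21-fold, adjusted p = 9.1e-05) and by 0.67 ± 0.22 in M2a (adjusted p = 0.035). Its other 2 probe sets did not pass in M1 (-0.20 and -0.27), and the M1 difference was -0.72 with the mean of the probe sets and -2.68 with the hybridization covariate. The M2a call was lost in 11 of 25 alternatives. These included leaving out M0 array 2 (-0.63) or 3 (-0.60), any M1 array (-0.67), M2a array 2 (-0.73) or M2a array 3 (-0.46, adjusted p = 0.18), and the mean of the probe sets gave -0.04. Leaving out an M1 array does not alter any M2a minus M0 difference, nor an M2a array any M1 minus M0 difference, only the estimate of spread. Without an M1 array the share of all genes called in M2a fell from 31.9% to between 28.9% and 29.5%.

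Of the enzymes after lanosterol, 2 more were lower in M1 and 1 was higher in M2a. Hsd17b7, a ketoreductase of this segment, had 5.81, 5.76 and 5.91 in M1, 6.68, 6.60 and 6.44 in M2a, and 6.62 to 6.67 in M0. Its M0 arrays agreed within 0.02 (SD), and it fell by 0.82 ± 0.08 in M1 (adjusted p = 1.3e-05), and all 4 probe sets had differences between -0.82 and -0.39. Without the _x_at and _s_at sets the difference was -0.39 (adjusted p = 0.0072). Sc5d, a sterol desaturase, had 7.91, 7.81 and 7.93 in M1, 8.72, 8.60 and 8.51 in M2a, and 8.80, 8.80, 8.61, 8.16 and 9.31 in M0. It fell by 0.85 ± 0.20 in M1 (adjusted p = 0.0049), a call that was lost with M0 arrays 4 and 5 alone (adjusted p = 0.063), and the actin and hybridization covariates gave -1.51 and -1.62. All 3 Sc5d probe sets passed in that direction.

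Dhcr7, the reductase of the last step to cholesterol in one branch, was the single sterol synthesis gene to rise. It had 7.47, 7.40 and 7.33 in M1, 8.46, 8.46 and 7.76 in M2a, and 7.15, 7.42, 7.34, 7.15 and 7.46 in M0. Each M2a array lay above every M0 array, and M2a array 3 lay closest to them. Dhcr7 rose by 0.92 ± 0.16 in M2a (adjusted p = 0.00096), a call that was lost with the hybridization covariate (0.60, adjusted p = 0.092), and its M1 difference was 0.09 (adjusted p = 0.66). Tm7sf2, a sterol reductase, Msmo1, a methylsterol oxidase, Nsdhl, a sterol dehydrogenase, and Ebp, a sterol isomerase, did not pass in either state. Their differences were -0.29, -0.07, 0.20 and 0.44 in M1 and -0.35, 0.06, -0.06 and -0.17 in M2a. Ebp had 9.23, 9.28 and 9.19 in M1 and 8.14 to 9.44 in M0, and it passed in M1 without M0 array 5 (0.60, adjusted p = 0.011). Msmo1, whose M0 arrays ran from 7.28 to 9.46, passed as lower in M1 with the actin covariate (-1.30, adjusted p = 0.002).

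Over the 17 measured sterol synthesis genes, 0 rose and 7 fell in M1, with a median of -0.29, and 1 rose and 4 fell in M2a, with a median of -0.13. The share called in either direction was 41.2% in M1, near the 39.7% of all genes, and 29.4% in M2a, near the 31.9% of all genes. By direction, the 41.2% in M1 were all lower, where 17.6% of all genes were lower and 22.1% higher. In M2a 13.3% of all genes were lower and 18.6% higher, beside 4 and 1 of the 17 here. The other 10 genes in M1 and 12 genes in M2a did not pass. Neutrophil-lineage and cell cycle genes were also lower in both states, as given above, and the spread of the M0 arrays within the sterol genes was itself ordered. M0 array 5 was the highest M0 array in 13 of the 17 genes and M0 array 4 the lowest in 11, where over all genes array 5 was highest in 29.3% and array 4 lowest in 25.2%. The mean of the 17 genes was 7.52, 7.76, 7.75, 7.35 and 8.0 in M0 arrays 1 to 5, and the actin difference of arrays 4 and 5 was -1.27 and 0.05. Without M0 arrays 1 and 4, Tm7sf2 and Fdps passed as lower in M1 (-0.56 and -0.77), and Pmvk, Sqle, Tm7sf2 and Ebp passed as lower in M2a (-0.36, -0.39, -0.63 and -0.46). With the hybridization covariate Pmvk (-0.50), Tm7sf2 (-1.21), Msmo1 (-1.98) and Ebp (-0.73) passed as lower in M1. In M2a the same covariate made Pmvk (-0.64), Sqle (-0.77), Lss (-0.52), Tm7sf2 (-1.18), Msmo1 (-1.65), Ebp (-1.22) and Sc5d (-0.82) pass as lower.

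**Figure D2:**
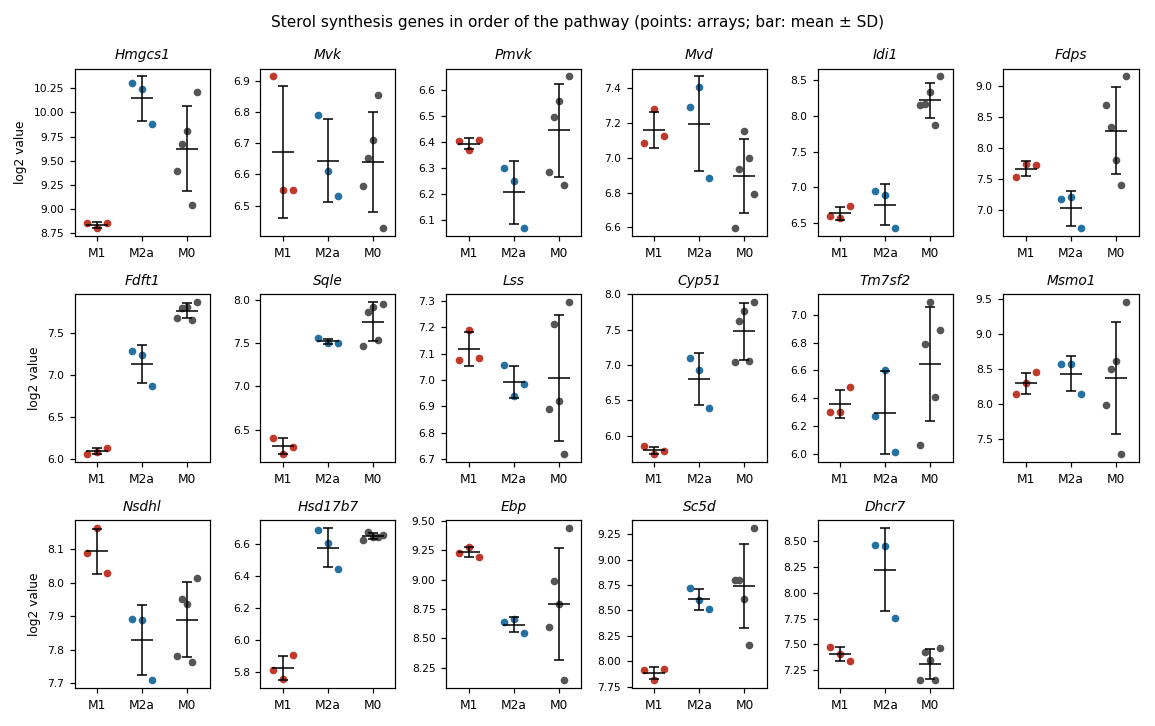
Log2 values of the 17 sterol synthesis genes in pathway order, 1 panel a gene, with M1, M2a and M0 from left to right, 1 point an array and a bar at each mean with its SD. M1 points lie below M0 in Idi1, Fdft1, Sqle, Cyp51 and Hsd17b7, and M2a array 3 is the lowest M2a point in 15 of the 17 panels.

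M2a array 3 stood apart within this pathway. It was the lowest M2a array in 15 of the 17 sterol synthesis genes (88.2%) and in 26 of the 35 genes, where it was lowest in 36.9% of all genes. The mean of the 17 genes ran from 7.15 to 7.18 over the M1 arrays and from 7.26 to 7.59 over the M2a arrays. Scd1 showed the same array at its largest gap, with 6.97 and 6.86 in M2a arrays 1 and 2 and 5.29 in array 3. Ch25h ran the other way, with 5.55 and 5.69 in arrays 1 and 2 and 6.41 in array 3. The 3 M1 arrays were closer, with a median SD over the 35 genes of 0.0739 in M1, 0.155 in M2a and 0.267 in M0. Without M2a array 3, 4 of the 35 genes were called lower in M2a, against 8 with it. Of all genes, 23.3% passed in either direction in M2a against M0 without this array, and 31.9% with it.

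Among the genes that set SREBP activity, the transcription factors did not pass and 2 of their partners were lower in M1. Srebf1, which drives fatty acid genes in its main form, had 8.02, 8.09 and 8.08 in M1, 8.16, 8.30 and 8.05 in M2a, and 7.60, 7.88, 7.91, 7.44 and 8.16 in M0. Its differences were 0.27 (adjusted p = 0.17) in M1 and 0.37 (adjusted p = 0.072) in M2a, and both passed without M0 array 5 (0.36 with an adjusted p of 0.037, and 0.46 with an adjusted p of 0.013). The hybridization covariate turned them to -0.45 and -0.27, neither past the threshold. Srebf2, the main activator of sterol synthesis, had differences of -0.28 (adjusted p = 0.087) in M1 and -0.13 in M2a. It passed in M1 without M0 array 5 (-0.33, adjusted p = 0.034), and its second probe set was -0.57 in M1 (adjusted p = 0.0067).

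Insig1, which holds SREBP in the endoplasmic reticulum and is itself an SREBP target, had 6.91, 7.04 and 7.30 in M1, 7.64, 7.63 and 7.65 in M2a, and 7.28, 8.05, 8.22, 7.65 and 8.04 in M0. The highest M1 array met the lowest M0 array, which was M0 array 1. Insig1 fell by 0.77 ± 0.19 in M1 (adjusted p = 0.0074), and by 1.62 with the hybridization covariate. Its M2a difference was -0.20 (adjusted p = 0.45), and -0.46 (adjusted p = 0.0042) without M0 arrays 1 and 4. Stard4, a carrier of sterol between membranes whose gene SREBP activates, had 6.08, 6.09 and 6.33 in M1, 6.38, 6.39 and 6.08 in M2a, and 7.18, 7.45, 7.34, 6.96 and 7.68 in M0. It fell in both states without overlap, by 1.15 ± 0.15 in M1 (adjusted p = 0.00011) and by 1.04 ± 0.15 in M2a (adjusted p = 0.00034). All 3 Stard4 probe sets had differences below 0 in both states, and the hybridization covariate gave -1.81 and -1.63.

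In fatty acid synthesis, Acly and Fasn were lower in M1, Fasn was lower in M2a, and the desaturase Scd2 was higher in both states. Of the 5 genes, 1 rose and 2 fell in M1, and 2 rose and 1 fell in M2a. The share called was 60% in each, where 39.7% and 31.9% of all genes passed. Acly, which makes cytosolic acetyl-CoA from citrate, had 9.22, 9.31 and 9.27 in M1, 9.88, 9.93 and 9.92 in M2a, and 9.71, 9.85, 9.74, 9.59 and 9.95 in M0. It fell by 0.50 ± 0.09 in M1 (adjusted p = 0.0012), and its M2a difference was 0.14 (adjusted p = 0.29). Another Acly probe set of similar signal gave -0.50 in M1 and passed as higher in M2a (0.45), the mean of its probe sets gave -0.27 in M1, and the hybridization covariate gave -0.83. Acaca, acetyl-CoA carboxylase, did not pass in either state (-0.21 in M1 and 0.23 in M2a).

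Fasn, fatty acid synthase, had 6.65, 6.50 and 6.59 in M1, 7.18, 7.20 and 6.81 in M2a, and 7.75, 7.71, 7.33, 7.79 and 7.41 in M0, and the 3 groups did not overlap. It fell by 1.02 ± 0.13 in M1 (adjusted p = 0.00011) and by 0.54 ± 0.13 in M2a (adjusted p = 0.01). With the hybridization covariate these were -0.61 (adjusted p = 0.053) and -0.17 (adjusted p = 0.52). The M2a call was also lost without M2a array 3 (-0.41, adjusted p = 0.062) and with M0 arrays 4 and 5 alone (adjusted p = 0.055).

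Scd1 and Scd2 encode desaturases that put the double bond into saturated fatty acids, and Scd2 was the gene of this group that rose in both states. Scd2 had 9.19, 9.37 and 9.38 in M1, 10.12, 10.20 and 9.82 in M2a, and 8.04, 8.11, 8.05, 7.58 and 8.56 in M0. All M1 and M2a arrays lay above all M0 arrays. It rose by 1.25 ± 0.18 in M1 (2.37-fold, adjusted p = 0.00021) and by 1.98 ± 0.18 in M2a (3.95-fold, adjusted p = 9e-06). A second Scd2 probe set gave 1.25 and 1.53, and another, of low signal, gave -0.04 and 0.12, so that the mean of the probe sets was 0.82 in M1 and 1.21 in M2a. The M1 difference was 0.70 with the actin covariate and was not past the threshold with the hybridization covariate (0.54, adjusted p = 0.15).

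Scd1 had 5.03, 5.26 and 5.4 in M1, 6.97, 6.86 and 5.29 in M2a, and 5.01, 5.51, 5.72, 5.52 and 5.30 in M0. The rise of 0.96 ± 0.32 in M2a (adjusted p = 0.041) rested on M2a arrays 1 and 2, since array 3 lay within the M0 range. Scd1 lost that call in 15 of 24 alternatives, which included leaving out M0 array 1 (0.86), 2 (0.98) or 5 (0.93), any M1 array (0.96), and M2a array 1 (0.66, adjusted p = 0.2) or 2 (0.72, adjusted p = 0.19). Without M2a array 3 the difference was 1.5 (adjusted p = 0.00021). In M1 Scd1 did not pass (-0.18). Its signal was low, with a mean of 5.62 over all arrays, where the median gene had 6.

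**Figure D3:**
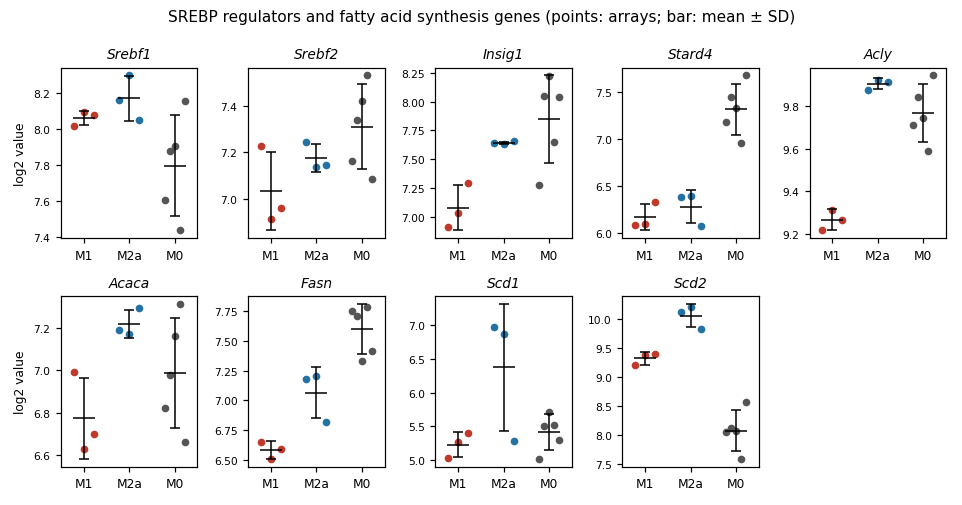
Log2 values of the 4 SREBP regulator genes and the 5 fatty acid genes, with M1, M2a and M0 from left to right, 1 point an array and a bar at each mean with its SD. Scd2 lies above M0 in M1 and M2a, Stard4 and Fasn lie below it in both, and 1 of the 3 Scd1 points in M2a falls among the M0 points.

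The LXR and efflux genes called against M0 differed between the 2 cytokine states. Of the 6 genes, 2 rose and 0 fell in M1 (33.3% called, where 39.7% of all genes passed). In M2a 1 rose and 2 fell (50% called, where 31.9% of all genes passed). Nr1h3, which encodes the receptor LXR alpha, had 9.32, 9.32 and 9.19 in M1, 6.69, 6.72 and 6.41 in M2a, and 6.47, 7.44, 7.22, 7.07 and 7.02 in M0. Every M1 array lay well above every other array. Nr1h3 rose by 2.23 ± 0.18 in M1 (4.70-fold, adjusted p = 2e-06) and kept this call in all 25 alternatives, at 1.63 to 2.33. Not all of these could move the difference. Nr1h3 was read from 1 probe set, so other choices of probe set could not change it, nor could other variance settings or leaving out M2a arrays. Its M2a difference was -0.44 (adjusted p = 0.086), and it passed when M0 array 1 (-0.58, adjusted p = 0.0044) or both M0 arrays 1 and 4 (-0.62, adjusted p = 0.0016) were left out.

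Abca1 exports cholesterol and phospholipid to apolipoproteins and is a classic LXR target. It had 11.70, 11.80 and 11.90 in M1, 10.01, 10.16 and 9.85 in M2a, and 8.87, 10.39, 10.87, 9.27 and 10.82 in M0. M0 arrays 1 and 4 were far below the other 3, and the M1 arrays were above all of them. Abca1 rose by 1.76 ± 0.41 in M1 (3.38-fold, adjusted p = 0.0052), and its 3 probe sets gave 1.18 to 1.76. Without M0 arrays 1 and 4 the difference was 1.11 (adjusted p = 3.9e-05). The actin covariate gave 0.88 (adjusted p = 0.2), and the hybridization covariate turned it to -0.55 (adjusted p = 0.27). In M2a the difference was -0.03, and -0.68 (adjusted p = 0.0017) without M0 arrays 1 and 4.

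Abcg1, which exports cholesterol to high-density lipoprotein, followed another order. It had 9.85, 9.87 and 9.91 in M1, 10.41, 10.35 and 10.23 in M2a, and 8.46, 9.5, 9.94, 9.01 and 9.59 in M0. All M2a arrays exceeded all M0 arrays, whereas the M1 arrays lay just under the highest M0 array. Abcg1 rose by 1.03 ± 0.26 in M2a (adjusted p = 0.01), by 0.65 without M0 arrays 1 and 4, and its second probe set gave 0.88. The hybridization covariate turned the M2a difference to -0.09 (adjusted p = 0.83). The M1 difference was 0.58 (adjusted p = 0.098), and it passed without M0 array 3 (0.74, adjusted p = 0.028). The hybridization covariate turned it to -0.67 (adjusted p = 0.14).

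Mylip, a ubiquitin ligase induced by LXR that sends lipoprotein receptors to degradation, lay on opposite sides of M0 in the 2 states. It had 10.10, 10.16 and 10.17 in M1, 8.08, 8.02 and 7.71 in M2a, and 8.22, 9.21, 9.87, 8.21 and 10 in M0. Neither state overlapped M0, whose arrays 1 and 4 were nearly at the M2a level. The M1 difference of 1.04 did not pass (adjusted p = 0.051) and passed without M0 array 3 (1.23) or 5 (1.26), while the hybridization covariate turned it to -1.07 (adjusted p = 0.052). Mylip fell by 1.16 ± 0.39 in M2a (adjusted p = 0.038), and by 1.76 (adjusted p = 1.5e-05) without M0 arrays 1 and 4, with -3.06 under the hybridization covariate. Mylip lost this call in 10 of 25 alternatives, which included leaving out M0 array 2 (-1.14) or 3 (-0.97), any M1 array (-1.16), M2a array 1 (-1.24), M2a array 2 (-1.20) or M2a array 3 (-1.05, adjusted p = 0.13).

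Apoe is the apolipoprotein that macrophages secrete to carry cholesterol away. It had 13.78, 13.78 and 13.73 in M1, 9.22, 9.53 and 8.59 in M2a, and 13.51, 13.98, 14.07, 13.68 and 14.03 in M0. The M1 arrays lay inside the M0 range near the top of the array's scale, where the highest value of any probe set was 14.49, and the M2a arrays lay far below. Whether the signal is compressed at that level was not tested, so its M1 and M2a differences are those measured on this scale. Apoe fell by 4.74 ± 0.19 in M2a (26.7-fold, adjusted p = 1.8e-08) and kept this call in all 25 alternatives, at -5.25 to -4.48. Apoe too was read from 1 probe set, so other choices of probe set could not change this difference, nor could leaving out M1 arrays. Its M1 difference was -0.09 (adjusted p = 0.74). Other lists were lower in M2a as well: 6 of 7 stromal and endothelial genes, 5 of 8 macrophage markers (1 rose) and 11 of 11 neutrophil-lineage genes, where 13.3% of all genes were lower. The part of any of these in the Apoe difference was not tested. Lpcat3, an LXR target that puts polyunsaturated chains into phospholipid, did not pass in either state (0.55 and 0.19), and passed in M1 without M0 array 5 (0.72, adjusted p = 0.0076). With the hybridization covariate Lpcat3 passed as lower in both states (-0.78 and -1.01), and Nr1h3 (-0.98) and Abca1 (-2.10) passed as lower in M2a.

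Of the genes that handle cholesterol inside the cell, Npc2 was higher in M1 and Ch25h in M2a. Npc1 and Npc2 hand cholesterol out of the lysosome. Npc2 had 13.24, 13.14 and 13.20 in M1, 12.51, 12.53 and 12.49 in M2a, and 12.31, 12.91, 12.94, 12.71 and 12.73 in M0. It rose by 0.47 ± 0.13 in M1 (adjusted p = 0.014). This call was lost without M1 array 1 (0.45, adjusted p = 0.055) and with the actin (0.45, adjusted p = 0.082) or hybridization covariate (0.00, adjusted p = 0.99). The 4 Npc2 probe sets ranged from -0.45 to 2.18 in M1, and their mean gave 0.72. In M2a Npc2 had a difference of -0.21, which passed without M0 array 1 (-0.31, adjusted p = 0.022). Npc1 did not pass (0.35 in M1 and 0.47 in M2a), except as lower in both with the hybridization covariate (-1.17 and -0.89).

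Ch25h makes an oxysterol that holds back SREBP and is known in mouse macrophages as a gene induced by interferon. It had 4.53, 4.58 and 4.71 in M1, 5.55, 5.69 and 6.41 in M2a, and 5.09, 5.18, 4.72, 5.06 and 4.93 in M0. Every M2a array lay above every other array. Ch25h rose by 0.89 ± 0.18 in M2a (adjusted p = 0.0026). Its signal was low (mean 5.13 over all arrays, where the median gene had 6), and it was read from 1 probe set. Its M1 difference of -0.39 did not pass (adjusted p = 0.1), although the M1 arrays lay below all M0 arrays, and it passed without M2a array 3 (adjusted p = 0.023).

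**Figure D4:**
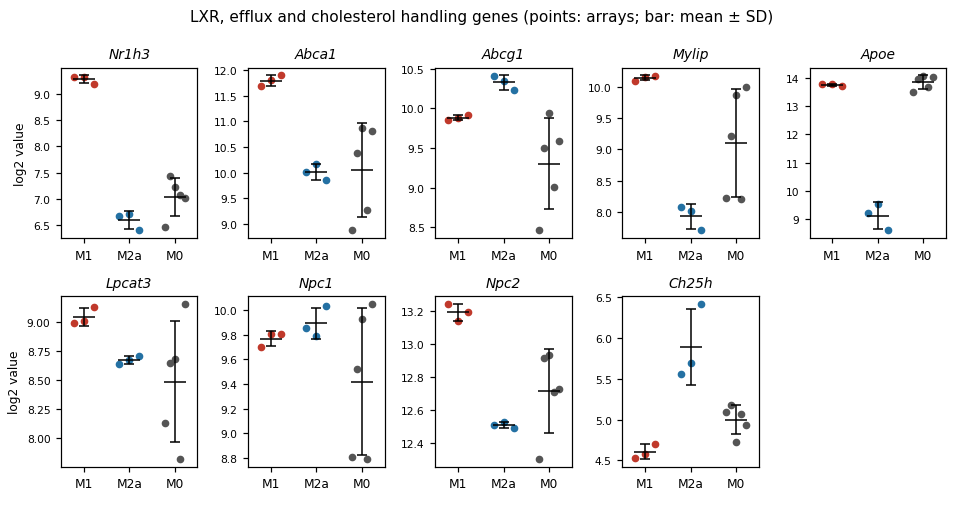
Log2 values of the 6 LXR and efflux genes and the 3 genes of cholesterol handling, with M1, M2a and M0 from left to right, 1 point an array and a bar at each mean with its SD. Nr1h3 stands above M0 in M1 alone, Apoe stands below M0 in M2a alone, and the Abca1 and Mylip points of M0 spread over more than 1 log2 unit.

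The comparison of M1 with M2a does not use the M0 arrays for its means, only for the estimate of spread. In it 0 of the 17 sterol synthesis genes passed as higher in M1 and 7 as lower (41.2%). Of all genes 29.4% passed, 13.7% higher and 15.6% lower. The 7 sterol genes were Hmgcs1 (-1.31), Sqle (-1.21), Fdft1 (-1.04), Cyp51 (-1.01), Dhcr7 (-0.82), Hsd17b7 (-0.75) and Sc5d (-0.72). For Hmgcs1 the M1 mean was 8.84 ± 0.03 and the M2a mean 10.15 ± 0.23 (SD, n = 3 each), with an adjusted p of 0.0015 in limma. For Sqle these were 6.31 ± 0.09 and 7.52 ± 0.03, with an adjusted p of 4.1e-05. The Cyp51 call was lost with the mean of its probe sets (-0.68, adjusted p = 0.091) and the Hsd17b7 call without the _x_at and _s_at sets (-0.18, adjusted p = 0.23). Of the 5 fatty acid genes 4 were lower in M1 (80%, where 15.6% of all genes passed as lower). These were Acly (-0.64), Fasn (-0.48), Scd1 (-1.14) and Scd2 (-0.74), and Acaca did not pass (-0.45, adjusted p = 0.061). The 4 SREBP regulator genes did not pass.

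In the LXR group 4 of 6 genes were higher in M1 (66.7%, where 13.7% of all genes passed as higher), Apoe by 4.65 ± 0.22, Nr1h3 by 2.67 ± 0.20, Mylip by 2.20 ± 0.43 and Abca1 by 1.79 ± 0.46, and 0 were lower. These 4 differences passed with adjusted p-values of 1.9e-08, 1.1e-06, 0.0023 and 0.011, and the Abca1 call was lost with the actin covariate (0.96, adjusted p = 0.17). Abcg1 (-0.45, adjusted p = 0.28) and Lpcat3 (0.37, adjusted p = 0.34) did not pass, although the M1 and M2a arrays overlapped in neither gene. With only the 2 groups compared, Abcg1 passed as lower in M1 (adjusted p = 0.00061) and Lpcat3 as higher (adjusted p = 0.0014). In that fit 56.9% of all genes passed. Both also passed without M0 arrays 1 and 4 (adjusted p = 0.007 and 0.03), where 47.6% of all genes passed. Of the 12 measured LXR partners and other LXR targets, 2 were higher and 6 lower in M1 against M2a, with a median of -0.22. The share called was 66.7%, where 29.4% of all genes passed. Npc2 was higher in M1 by 0.68 ± 0.15 and Ch25h was lower by 1.28 ± 0.20. In this comparison 25 of the 35 genes had no overlap between the M1 and M2a arrays, where 64.6% of all genes had none. Against M0, 17 genes of M1 and 11 of M2a had no overlap, where 40.1% and 35.1% of all genes had none.

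Some calls between M1 and M2a changed when 1 array was left out. Leaving out any M1 or M2a array also lowered the share of all genes called, from 29.4% to between 21.6% and 22.4%. Leaving out an M0 array does not alter the M1 minus M2a difference, only the estimate of spread. Sc5d was lost without M1 array 1 (-0.74), 2 (-0.69) or 3 (-0.75) and without M2a array 1 (-0.67), 2 (-0.73) or 3 (-0.77). Fasn was lost without M1 array 1 (-0.52), 2 (-0.44) or 3 (-0.49) and without M2a array 1 (-0.43) or 2 (-0.41). Scd1 was lost without M1 array 1 (-1.04), 2 (-1.16) or 3 (-1.23) and without M2a array 1 (-0.85) or 2 (-0.90). Scd2 was lost without M1 array 1 (-0.67) and without M2a array 1 (-0.70) or 2 (-0.66). In the other direction, Ebp passed as higher in M1 (0.61) without M0 array 4 or 5, Insig1 as lower (-0.56) without M0 array 1, and Acaca as lower without M0 array 4 or 5 (-0.45) or M1 array 1 (-0.55).

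**Figure D5:**
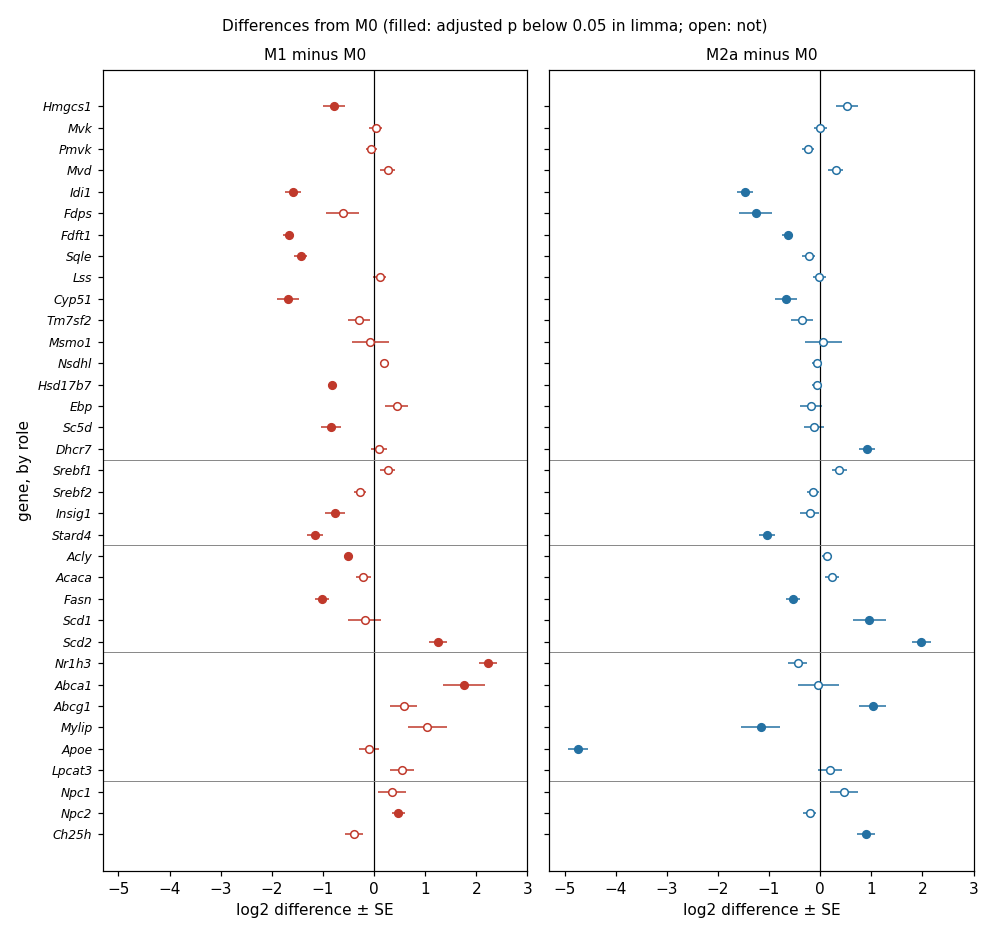
Log2 differences from M0 with their standard errors for the 35 genes (rows, by role), M1 minus M0 in one panel and M2a minus M0 in the other, with filled points for an adjusted p below 0.05 in limma. Filled points of the sterol genes in M1 all lie left of 0, Nr1h3 is the rightmost point in M1, and Apoe at -4.74 is the leftmost in M2a.

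Other genes of the same pathways were read from 3 further lists, chosen like the genes above with earlier results of these data known. Of 21 measured genes for SREBP processing and other lipid synthesis, 3 rose and 8 fell in M1, and 5 rose and 2 fell in M2a. The shares called, 52.4% and 33.3%, stand beside 39.7% and 31.9% of all genes. The 3 that rose most in M1 were Slc25a1, the mitochondrial citrate carrier (1.14), Acss2, an acetyl-CoA synthetase (0.79), and Tmem97, a sterol-responsive membrane protein (0.34). The largest falls in M1 were Lbr, a nuclear envelope protein with sterol reductase activity (-3.53), Lpin1, a phosphatidate phosphatase (-2.12), and Acsl3, an acyl-CoA synthetase (-0.95). Lbr fell in M2a as well (-3.14), as did Elovl6, a fatty acid elongase (-0.97). Acsl3 rose in M2a (1.10), together with Insig2, the second SREBP retention protein (1.01), and Mid1ip1, which assembles acetyl-CoA carboxylase (0.92). In M1 Acsl3 was 0.23 without the _x_at and _s_at sets (adjusted p = 0.17), so its direction there rests on the probe set.

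Of 12 measured LXR partners and other LXR targets, 1 rose and 8 fell in M1 (75.0% called, against 39.7% of all genes), and 3 rose and 5 fell in M2a (66.7%, against 31.9%). Apoc2, the activator of lipoprotein lipase, averaged 9.96 ± 0.09 in M1 (n = 3), 5.09 ± 0.15 in M2a (n = 3) and 9.24 ± 0.33 in M0 (SD, n = 5). It rose by 0.72 in M1, a call lost with the actin (0.55) and hybridization (0.10) covariates, and fell by 4.15 ± 0.17 in M2a (adjusted p = 1.5e-08). In RefSeq's gene order Apoc2 lies in 1 cluster with Apoc4, Apoc1 and Apoe. Cd5l, a protein secreted by macrophages, fell by 5.34 in M1 and fell by 2.69 in M2a. Lpl, lipoprotein lipase, fell by 2.19 in M1 and rose by 0.75 in M2a. Abca7, a lipid transporter, fell by 1.87 in M1. In M2a Pltp, the phospholipid transfer protein, rose by 2.08, Ncoa1, a nuclear receptor coactivator, by 0.39, and Scarb1, a receptor for high-density lipoprotein, fell by 1.16. The Scarb1 call was lost without the _x_at and _s_at sets (-0.25, adjusted p = 0.29).

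Of 19 measured genes for sterol transport, esterification and oxysterol metabolism, 4 rose and 9 fell in M1 (68.4% called, against 39.7% of all genes), and 5 rose and 4 fell in M2a (47.4%, against 31.9%). Hsd3b7, an enzyme that turns oxysterols towards bile acids, rose in M1 (1.57) and in M2a (0.92), and so did Gramd1b, which carries cholesterol from the plasma membrane to the endoplasmic reticulum (0.95 and 1.61). Stard3, a sterol carrier of late endosomes, rose in M1 (0.52), and Osbpl8, an oxysterol-binding protein homologue, in M2a (0.82). The largest falls in M1 were the lipoprotein receptor Vldlr (-1.05), Osbpl11 (-1.04), another oxysterol-binding protein homologue, and the endocytic receptor Lrp1 (-1.03). Each of these calls ended under an alternative: Vldlr was -0.06 with the hybridization covariate, Osbpl11 was -0.26 without the _x_at and _s_at sets, and Lrp1 was -0.22 with the mean of its probe sets. The hybridization covariate also ended the M1 calls of Slc25a1 (0.19) and Gramd1b (0.40) and the M2a calls of Acsl3 (0.16), Lpl (0.14), Hsd3b7 (0.01), Gramd1c (-0.12) and Gramd1a (-0.15). The largest falls in M2a were Cyp27a1, an oxysterol-making hydroxylase (-0.86), and the Gramd1b relatives Gramd1c (-0.49) and Gramd1a (-0.45). Without M2a array 3 Cyp27a1 (-0.74, adjusted p = 0.064) and Gramd1c (-0.47, adjusted p = 0.059) no longer passed, nor did Gramd1c without M2a array 1 (-0.48). In M1 Acss2 no longer passed without M1 array 2 (0.76) or 3 (0.80), and Tmem97 no longer passed without M0 array 1 (0.30), 3 (0.35) or 4 (0.29), M1 array 1 (0.38), 2 (0.34) or 3 (0.32), or M2a array 2 (0.34). In M2a Ncoa1 no longer passed without M0 array 1 (0.34), 2 (0.38) or 4 (0.31), any M1 array (0.39), or M2a array 1 (0.40), 2 (0.36) or 3 (0.41).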

How the data were processed

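Each of the 11 Affymetrix mouse genome arrays came as the authors' own log2 value of 45101 probe sets, as deposited. The submitters' processing notes name Partek, with no version. How background, probe summary and normalization were done is not given in the sources used here. Values ran from 0.73 to 14.49 and array medians from 5.14 to 5.34, and precision is limited by how many arrays there are. A probe table of the platform listed 35890 probe sets. Of these 34945 had 1 gene symbol (34741 brought up to date through Entrez identifiers), 932 had several and were left out, as were 64 control probe sets. Each of the 18193 genes was read from the probe set whose mean over all arrays was highest, and 9010 genes had several. No filter on low values was used.

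Groups came from the sample titles. Differences were fitted in limma 3.58.1 (R 4.3.3) by lmFit with 1 mean for each group and then eBayes, on all 11 arrays with 8 residual degrees of freedom. Benjamini-Hochberg adjustment ran over all genes at a threshold of 0.05. A difference is given with its standard error, a mean with its SD. Values of a gene's other probe sets come from the same fit over all probe sets with 1 symbol. The script was tested on simulated data. The members and gene lists were chosen with earlier results of these data known. All 35 measured members are named, and from each further list up to 3 rises and 3 falls against M0, the largest of those called with no overlap of arrays between the groups. The degrees of freedom count the M0 arrays as independent, although their means are tied. Whether replicate numbers pair the arrays was not settled. Deviations from the group mean correlated at -0.0392 to 0.248 over 9 pairs with the same number and at -0.341 to 0.341 over 30 other pairs. The values at -0.341 and 0.341 involve M0 arrays 4 and 5, which are tied to the other M0 arrays. Deviations within a group also sum to 0 for each gene, so these correlations cannot show or exclude a pairing. The 25 alternatives were 2 other choices of probe set, 2 normalizations, a filter on low genes, other variance settings, subsets of arrays, 2 control covariates, the replicate block and leaving out each array. For the 3 further lists they were added after the data were seen. Promoter windows came from RefSeq (GRCm38.p6, 32851 windows of 27025 genes). Acat2 and Soat1 were not analysed here.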

Additional observations from a re-analysis of the deposited data

How the results depend on the processing

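Over 25 alternatives and 35 genes, 795 of 873 values kept their side of the threshold and direction in M1 against M0, 760 of 873 in M2a against M0 and 771 of 873 in M1 against M2a. Scd1 and Ch25h, called higher in M2a in the main fit, have no value in the fit of genes above the median gene, which holds 33 of the 35. Another 28, 27 and 21 values, not past the threshold in either fit, changed sign. Calls were lost in 9, 42 and 30 values and gained in 37, 37 and 51. The share of all genes called, in either direction, moved with the setting as well. In M1 against M0 it was 39.7% in the main fit, 43.9% with array weights and 44.1% with the replicate block. It was 44.7% with M0 arrays 1 to 3 only and 46.5% without M0 array 5. The actin covariate gave 39.9% and the hybridization covariate 47.6%. The count of genes higher in M1 against M0 was 4 and became 8 with array weights, 7 with the replicate block, 7 with M0 arrays 1 to 3 only, 2 with the actin covariate, 1 with the hybridization covariate and 3 to 8 leaving out 1 array (8 without M0 array 5), while the count lower was 11 and ran from 11 to 12 leaving out 1 array. In M2a against M0 the count higher was 5, and it was 3 among genes above the median gene (of 33, without Scd1 and Ch25h), 2 with the hybridization covariate and 4 to 6 leaving out 1 array. The count lower was 8, and it was 5 with M0 arrays 4 and 5 only and 16 without M0 arrays 1 and 4. It was 20 with the hybridization covariate and 4 to 10 leaving out 1 array (4 without M2a array 3). Of all genes 31.9% passed in the main fit, 20.9% with M0 arrays 4 and 5 only and 45.3% without M0 arrays 1 and 4. The share was 49.5% with the hybridization covariate, 43.7% among genes above the median gene and 23.3% without M2a array 3. In M1 against M2a the count higher was 5, and it was 9 with only the 2 groups compared, 10 with array weights, 8 with the replicate block, 8 with M0 arrays 1 to 3 only, 8 without M0 arrays 1 and 4, and 5 to 6 leaving out 1 array. The count lower was 12 and ran from 8 to 13 leaving out 1 array (8 without M2a array 1 or 2). Of all genes 29.4% passed in the main fit, 56.9% with only the 2 groups compared and 57.1% with array weights. The share was 38.3% with the replicate block, 39.2% with M0 arrays 1 to 3 only and 47.6% without M0 arrays 1 and 4. It was 22.1% without M2a array 1 and 21.8% without M2a array 2. With the replicate block, a term for the labels' replicate number, 12 genes were lower in M1 against M0, 6 higher and 7 lower in M2a against M0, and 13 lower in M1 against M2a. Whether the numbers pair the arrays is not known, and these counts describe another fit of the same data.

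Among values past the threshold in at least 1 of the fits compared, directions turned in 11 values of the 35 genes and in 6 of the further genes. In M1 against M0 the hybridization covariate gave Abca1 -0.55, Ebp -0.73, Lpcat3 -0.78, Npc1 -1.17, Tmem97 -0.22 and Stard3 -0.094, and leaving out _x_at and _s_at probe sets gave Acsl3 0.23. In M2a against M0 the hybridization covariate gave Msmo1 -1.65, Abcg1 -0.090, Lpcat3 -1.01, Npc1 -0.89, Insig2 -0.27, Ncoa1 -0.17 and Osbpl8 -0.069. Fdft1 was 0.053 with the mean of its probe sets and 0.10 without _x_at and _s_at probe sets, and Lss was 0.20 with the mean of its probe sets. The hybridization controls did not overlap between M0 and the other groups, so that covariate and the groups can hardly be told apart. The actin difference was 0.13 to 0.18 in M1, above every M0 array (at most 0.05) and every M2a array (at most -0.53). In comparisons with M1 the actin covariate and the group can therefore hardly be told apart either. The cause of the other changes was not tested. The counts with few M0 arrays rest on fewer arrays, and 11 arrays with tied M0 means limit what any of these fits can resolve.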

Other observations

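The series' design text speaks of 3 sets of arrays whose results were averaged, while 5 arrays are labelled M0. The tie of the M0 means, within 8.33e-05 on every probe set, held for 1 of the 10 ways of parting 3 M0 arrays from 2, and the other 9 gave median differences of 0.0874 to 0.31. No source used here gives the reason.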
